A study of Mus musculus with 6 samples.

Results

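Notch receptors, their ligands and the target genes Hes1 and Hey1 were measured in the proximal incisor of mice that had lost Runx2 from Gli1-expressing cells. The 10 genes, namely Notch1, Notch2, Notch3, Notch4, Dll1, Dll4, Jag1, Jag2, Hes1 and Hey1, were chosen by name for their roles in the pathway. Earlier results of these data were known when they were chosen. All 10 were found among the 25700 genes of the deposited count table, and all 10 passed the filter on low counts that left 19264 genes for testing. RNA was sequenced in 6 libraries from C57BL/6 mice aged 5 weeks, 3 libraries per genotype. Control mice were Runx2fl/fl, with floxed Runx2 alleles and no Cre. The conditional knockout (cKO) mice were Gli1-CreERT2;Runx2fl/fl, in which tamoxifen activates a Cre recombinase only in cells that express Gli1. The same tamoxifen protocol is given for both genotypes, given daily for 3 days when the mice were 1 month old, with tissue collected 1 week later. Because controls lacked the Gli1-CreERT2 allele, its own effect and that of Runx2 loss cannot be told apart. The labels call the tissue dental mesenchyme, but the enamel matrix gene Amelx, a product of dental epithelium, stood at 29893 to 42449 CPM (counts-per-million) in controls, so epithelium was in the sample.

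Notch receptors are membrane proteins that are cut when a ligand on a neighbouring cell binds them. The released intracellular part enters the nucleus, joins the DNA-binding protein RBPJ and a Mastermind co-activator, and switches on genes such as Hes1 and Hey1, which encode transcriptional repressors. In vessels Dll4 and Notch4 belong to the endothelium and Notch3 to the mural cells around it, while in the tooth Jag2 and Notch1 are known from the enamel-forming epithelium and the layer beside it. These assignments are background knowledge and were not measured here, since whole tissue was sequenced.

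The 3 members whose groups did not overlap, Dll4, Notch4 and Notch3, are shown by the 250 bases before their RefSeq start (GRCm38.p6), because these are the members on which the results turn. Capitals mark the GC box GGGCGG on either strand. The windows are chr2:119325534-119325783 on the plus strand for Dll4, chr17:34564045-34564294 on the plus strand for Notch4 and chr17:32166891-32167140 on the minus strand for Notch3.
Dll4: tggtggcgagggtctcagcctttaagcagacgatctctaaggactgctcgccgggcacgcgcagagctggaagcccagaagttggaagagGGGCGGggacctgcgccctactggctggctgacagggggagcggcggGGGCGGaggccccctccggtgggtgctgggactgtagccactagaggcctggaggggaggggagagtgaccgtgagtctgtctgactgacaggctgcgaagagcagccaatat
Notch4: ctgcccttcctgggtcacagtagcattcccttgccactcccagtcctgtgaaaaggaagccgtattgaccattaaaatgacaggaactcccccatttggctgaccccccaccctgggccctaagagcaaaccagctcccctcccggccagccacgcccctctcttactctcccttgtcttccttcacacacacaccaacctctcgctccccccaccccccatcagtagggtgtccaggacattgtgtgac
Notch3: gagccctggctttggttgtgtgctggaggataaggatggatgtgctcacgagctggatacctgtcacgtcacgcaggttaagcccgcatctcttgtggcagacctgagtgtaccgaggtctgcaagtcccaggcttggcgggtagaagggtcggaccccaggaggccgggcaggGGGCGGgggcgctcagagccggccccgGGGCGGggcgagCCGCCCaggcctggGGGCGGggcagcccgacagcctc
RefSeq windows were matched for 8 of the 10 members, 9 windows in all since Dll1 has 2, and none is printed for Hes1 and Hey1. The Dll4 window held 2 GC boxes and the Notch3 window 4, while the Notch4 window, with 58.4% G and C against 65.6% for Dll4 and 68.8% for Notch3, held 0. Among members whose groups overlapped, the windows of Notch1, Notch2 and Jag2 held 5 each and those of Dll1 and Jag1 held 0. Over all 32851 promoter windows of the same length, 32.7% held a GC box. Of 3 other strings searched on both strands, the RBPJ form TGGGAA stands in 21.6% of all windows, the RUNX form TGTGGT in 14.0% and the ETS form CCGGAA in 12.0%. None of those 3 strings was found in the 9 member windows, which says only that these letters are absent from these stretches. Other forms of each motif, such as the shorter GGAA of ETS factors, were not searched, so their absence cannot be read from this.

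Estimated counts summed to between 53525185 and 66694240 per library, so that a single count equals 0.0149 to 0.0186 CPM. The targeted gene Runx2 measured 79.7, 77.7 and 81.1 CPM in control 1 to 3 and 62.6, 53.9 and 49.0 CPM in cKO 1 to 3. It was thus lower in each library labelled cKO (log2 fold change -0.53, edgeR adjusted p = 0.0714, DESeq2 adjusted p = 0.000126). Control 1 was the 1 library with RNA of a male, at 4059 counts of the Y-linked gene Ddx3y against at most 1 in the other 5 libraries, and it also had the highest summed skeletal muscle markers (199 against 12.2 to 15.4 CPM). Late enamel markers summed to 112 and 98.1 CPM in control 1 and control 3 but 1798 CPM in control 2 and 1111 to 2632 CPM in cKO mice. Neutrophil markers were highest in cKO 1 and cKO 2 (42.5 and 16.8 CPM against 1.31 to 2.31 CPM elsewhere). The part of these libraries in the results below was not tested beyond leaving each out in turn.

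None of the 10 members passed the threshold of an adjusted p under 0.05 in either direction (edgeR quasi-likelihood test with Benjamini-Hochberg adjustment over 19264 genes), a call made for 0.0260% of all genes. At an unadjusted edgeR p under 0.05, 3 members were higher in cKO mice and 0 lower, beside 8.71% and 8.55% of all genes. DESeq2 called the same 3, Dll4, Notch4 and Notch3, all higher, where it called 4.02% of all genes higher, 3.66% lower and 7.68% in all. In these 3 genes every cKO library lay above every control library, as in 11.1% of all genes, and in no member did every cKO library lie below (12.0% of all genes). The median log2 fold change of the members was 0.12, with 8 above 0 and 2 below, while 9636 of the 19264 tested genes were above 0.

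**Figure D1:**
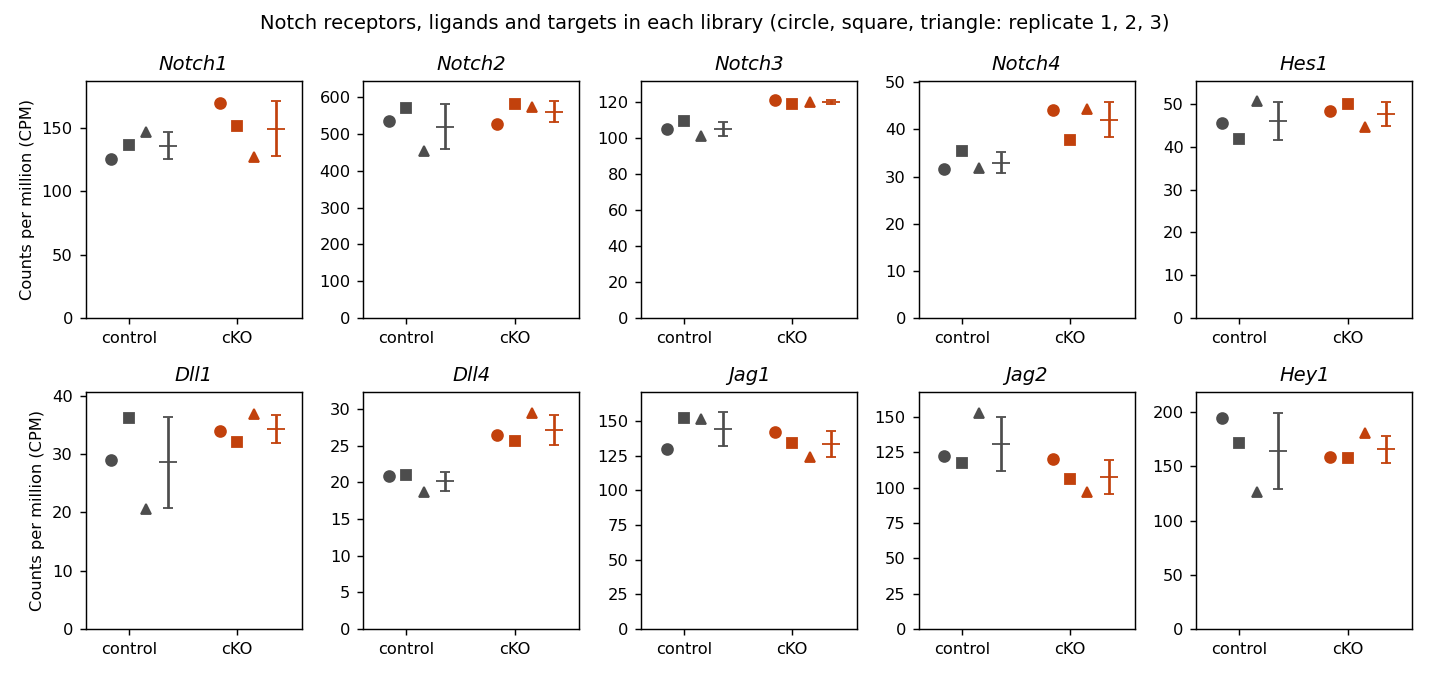
CPM of each member in the 6 libraries, control in grey and cKO in orange, with the replicate number given by the symbol and the group mean ± SD beside the points; all y axes start at 0. The cKO points lie wholly above the control points for Notch3, Notch4 and Dll4, and overlap them for the other 7 genes.

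Compared per kilobase of exonic sequence, the target Hey1 and the receptor Notch2 were the most abundant members in controls and the vascular pair the least. Hey1 stood at 50.3 ± 10.6 CPM per kilobase (SD, n = 3) and Notch2 at 48.2 ± 5.66, with ranges that overlapped. Jag1 at 24.7 ± 2.14, Hes1 at 22.6 ± 2.21 and Jag2 at 18.8 ± 2.75 CPM per kilobase followed, and each of these overlapped its neighbour. Notch3 at 13.0 ± 0.499 and Notch1 at 9.57 ± 0.752 CPM per kilobase were set apart from their neighbours on both sides. Dll1 at 6.76 ± 1.85 overlapped Dll4 at 5.23 ± 0.338, and Notch4 was lowest at 4.09 ± 0.273 CPM per kilobase, below every control value of Dll4. In cKO mice Notch2 (52.0 ± 2.63) and Hey1 (50.7 ± 3.95) again led and Notch4 (5.22 ± 0.464) was again last. The lengths join all annotated exons, so a gene with long minor isoforms, such as Notch1 with 14232 bases, gets a lower value than its main transcript would give.

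Dll4, the ligand by which sprouting endothelial cells signal to their neighbours (chromosome 2, 119325784 to 119335962, build mm10), had the lowest p of the members. It measured 20.8, 20.9 and 18.6 CPM in control 1 to 3 and 26.4, 25.6 and 29.4 CPM in cKO 1 to 3. Every cKO library was above every control, with cKO 3 highest and control 3 lowest. The group means were 20.1 ± 1.30 and 27.1 ± 2.005 CPM (SD, n = 3 each), a ratio of 1.35 and a log2 fold change of 0.43 (SE 0.081, 95% interval 0.24 to 0.62, edgeR adjusted p = 0.0822). DESeq2 gave an adjusted p of 0.000906. With each library left out in turn the log2 fold change lay between 0.37 and 0.48.

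Notch4, a receptor found mainly on endothelium (chromosome 17, 34564268 to 34588503), stood at 31.7, 35.5 and 31.8 CPM in control mice against 44.1, 37.7 and 44.3 CPM in the cKO mice. The groups did not overlap, but cKO 2 stood only slightly above control 2. The means were 33.0 ± 2.20 and 42.0 ± 3.74 CPM, a ratio of 1.27 and a log2 fold change of 0.35 (SE 0.084, 95% interval 0.15 to 0.55, edgeR adjusted p = 0.115, DESeq2 adjusted p = 0.0160). Leaving out 1 library gave values from 0.31 to 0.43.

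Genes that mark endothelium were higher in cKO mice together with this pair. Of 20 endothelial markers, all had a log2 fold change above 0 (median 0.27, range 0.066 to 0.42), 16 had groups that did not overlap, and none passed the edgeR threshold (15 at an unadjusted p under 0.05, and 11 called by DESeq2). Of all genes, 11.1% were higher without overlap, 8.71% were higher at an unadjusted edgeR p under 0.05, and DESeq2 called 4.02% higher. Cdh5, the cadherin of endothelial junctions, measured 123, 126 and 120 CPM in control mice against 146, 139 and 153 CPM in cKO mice. The summed level of the 20 was 1199 to 1282 CPM in control mice against 1445 to 1492 CPM in cKO mice, a ratio of 1.20, with no marker at 0. In whole tissue, more cells of a type and more RNA per cell cannot be told apart. Dll4 had a larger log2 fold change than any of the 20 markers, with Cd34 (0.42) next, and Notch4 stood below Sox17 (0.35). Standard errors of 0.046 to 0.16 for the markers span most of these gaps.

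**Figure D2:**
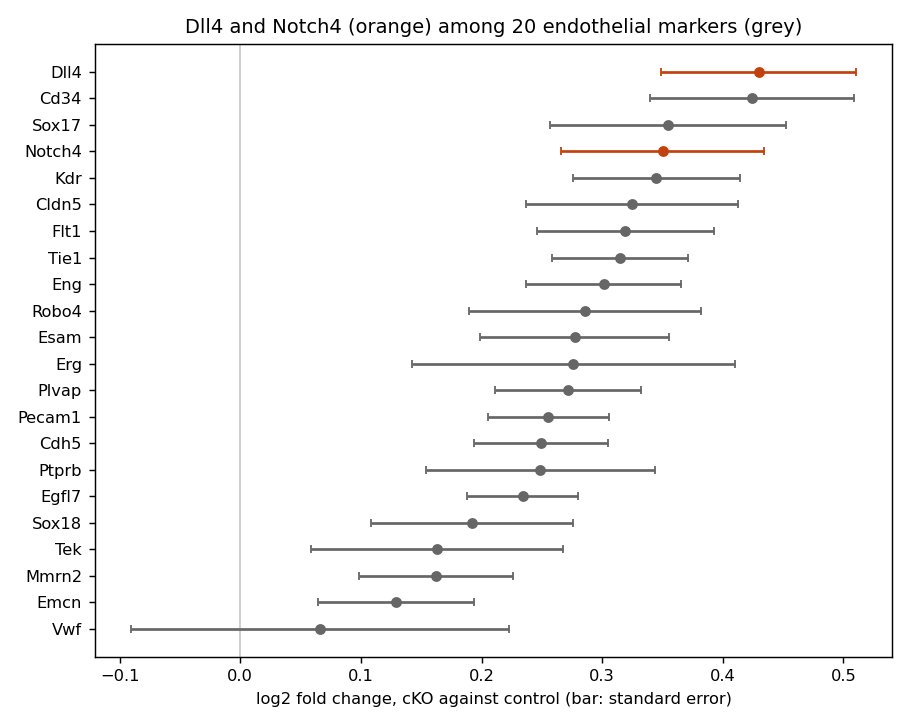
Log2 fold change (x axis, cKO against control) with its standard error for Dll4 and Notch4 in orange and 20 endothelial markers in grey, in order of size. All points lie above 0, from 0.066 for Vwf to 0.43 for Dll4.

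Set against the summed endothelial markers of its own library, Dll4 made up 1.63%, 1.74% and 1.55% of that sum in controls and 1.77%, 1.77% and 1.97% in cKO mice. These groups did not overlap, though the ratio of means came down to 1.12 and the gap between control 2 and cKO 1 was small. The log2 ratio of Dll4 to any other single tested gene was also higher in cKO mice without overlap in 63.8% of cases. No such share was computed for ratios to summed markers, either here or for the other members set against marker sums below. Notch4 made up 2.47%, 2.95% and 2.65% in controls and 2.95%, 2.61% and 2.97% in cKO mice, a ratio of means of 1.06. For Notch4 the groups overlapped on this scale. The part of the endothelial markers in the difference of either gene was not tested.

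The summed markers of 3 other cell types were also higher in every cKO library than in any control. All 8 macrophage markers had a log2 fold change above 0 (median 0.54), with 7 whose groups did not overlap, 0 past the edgeR threshold (8 at an unadjusted p under 0.05) and 7 called by DESeq2. Their sum was 375 to 502 CPM in control mice against 585 to 731 CPM in cKO mice. Of 4 odontoblast markers, 3 were above 0 and without overlap, and the other, at -0.46, was lower without overlap (median 1.38). In this list 0 passed the edgeR threshold, 3 were higher at an unadjusted p under 0.05 and 3 were called higher by DESeq2. The sum of the 4 was 3399 to 6134 CPM in control mice against 7784 to 14855 CPM in cKO mice. Of 14 markers of pulp and dental mesenchyme, a list that includes Runx2, 10 were above 0 (median 0.099) and 0 passed the edgeR threshold. At an unadjusted p under 0.05, 5 were higher and 2 lower, and DESeq2 called 4 higher and 1 lower. The groups did not overlap for 5 higher and 1 lower. The sums were 12642 to 21118 CPM in control mice against 24125 to 41542 CPM in cKO mice. Most of each sum came from the collagen genes Col1a1 (mean 11414 CPM in control and 24202 CPM in cKO mice) and Col1a2 (3869 and 5765 CPM). Beside these counts, 11.1% of all genes were higher and 12.0% lower without overlap. At an unadjusted edgeR p under 0.05 the shares were 8.71% higher and 8.55% lower, and by DESeq2 4.02% and 3.66%. The part of these 3 cell types in the differences of the members was not tested.

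Notch3, the receptor of pericytes and vascular smooth muscle (chromosome 17, 32120820 to 32166880), differed least in size of the 3 but with the narrowest spread. It measured 105, 109 and 101 CPM in control mice against 121, 119 and 120 CPM in the cKO mice. No library crossed between the groups, and the cKO libraries lay within 119 to 121 CPM. The means were 105 ± 4.03 and 120 ± 1.06 CPM, a log2 fold change of 0.19 (SE 0.050, 95% interval 0.072 to 0.31, edgeR adjusted p = 0.132, DESeq2 adjusted p = 0.0322). Markers of mural cells did not move as 1 group. The sum of 10 mural markers was 1115 to 1270 CPM in control mice against 991 to 1157 CPM in cKO mice, with 5 above 0, 5 below and none at 0. The contractile genes Acta2 (log2 fold change -1.26), Tagln (-1.41), Myh11 (-0.79) and Cnn1 (-2.86) were lower in every cKO library. Among pericyte markers the proteoglycan Cspg4 (0.27) was higher in every cKO library. The growth factor receptor Pdgfrb (0.21) and the potassium channel subunits Abcc9 (0.20) and Kcnj8 (0.18) had groups that overlapped, as had the signalling regulator Rgs5 at 0.0011. Higd1b was below 0 (-0.11), at a mean of 0.830 CPM in control mice against 0.769 CPM in cKO mice, and its groups overlapped too. None of the 10 passed the edgeR threshold (lowest adjusted p = 0.0610). At an unadjusted edgeR p under 0.05, 1 was higher and 4 lower, beside 8.71% and 8.55% of all genes. DESeq2 called 1 higher and 4 lower, beside 4.02% and 3.66% of all genes. The groups did not overlap for 1 higher and 4 lower, beside 11.1% and 12.0% of all genes. Notch3 made up 7.98% to 9.81% of the sum of all 10 mural markers in controls and 10.3% to 12.2% in cKO mice, a ratio of means of 1.28 without overlap. Over the 6 mural markers left without the contractile genes, a sum chosen after the data were seen, it made up 11.4% to 12.4% in controls and 11.7% to 14.4% in cKO mice. There the groups overlapped and the ratio of means was 1.09. The part of mural cells in the difference of Notch3 was not tested.

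The epithelial members went in opposite directions, and neither separated the groups. Jag2, the ligand known from enamel-forming epithelium (chromosome 12, 112907819 to 112929776), measured 122, 117 and 153 CPM in control mice against 120, 106 and 96.7 CPM in the cKO mice. Only cKO 1 lay within the control range, above control 2. The log2 fold change was -0.28 (SE 0.12, 95% interval -0.57 to 0.0049, edgeR adjusted p = 0.296), and it was -0.15 without control 3, the highest library. Notch1, the receptor studied in the layer next to the ameloblasts and also in endothelium (chromosome 2, 26457903 to 26516663), measured 125, 137 and 147 CPM in control mice against 170, 152 and 127 CPM in the cKO mice. The cKO range enclosed most of the control range (log2 fold change 0.13, SE 0.11, edgeR adjusted p = 0.595). Without cKO 1 it was 0.036.

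Epithelial markers also varied between libraries. The 15 dental epithelium markers summed to 4304 to 5411 CPM in control mice against 3739 to 5499 CPM in cKO mice, with 4 above 0, 11 below and none at 0. Of these 15, 0 passed the edgeR threshold, and 1 higher and 2 lower had an unadjusted p under 0.05. DESeq2 called 1 higher and 1 lower, and the groups did not overlap for 1 higher and 2 lower. The 4 secretory enamel markers summed to 60014 to 79503 CPM in control mice against 22153 to 46660 CPM in cKO mice. All 4 were below 0 and without overlap, 0 passed the edgeR threshold, 4 had an unadjusted p under 0.05 and DESeq2 called 3. Of all genes, 11.1% were higher and 12.0% lower without overlap. At an unadjusted edgeR p under 0.05 the shares were 8.71% higher and 8.55% lower, and by DESeq2 4.02% and 3.66%. As a share of the dental epithelium sum Jag2 was 2.84%, 2.50% and 2.82% in controls and 2.19%, 2.31% and 2.59% in cKO mice, and the groups overlapped. As a share of the secretory enamel sum, by contrast, Jag2 was 0.204%, 0.195% and 0.192% in controls and 0.365%, 0.227% and 0.437% in cKO mice, a ratio of means of 1.74 without overlap. Notch1 as a share of the dental epithelium sum was 2.71% to 2.91% in controls and 3.09% to 3.40% in cKO mice, without overlap. As a share of the endothelial sum, however, Notch1 was 9.78% to 12.2% in controls and 8.51% to 11.4% in cKO mice. The direction of both Jag2 and Notch1 therefore depended on which markers they were set against, and the part of any of these cell types was not tested.

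**Figure D3:**
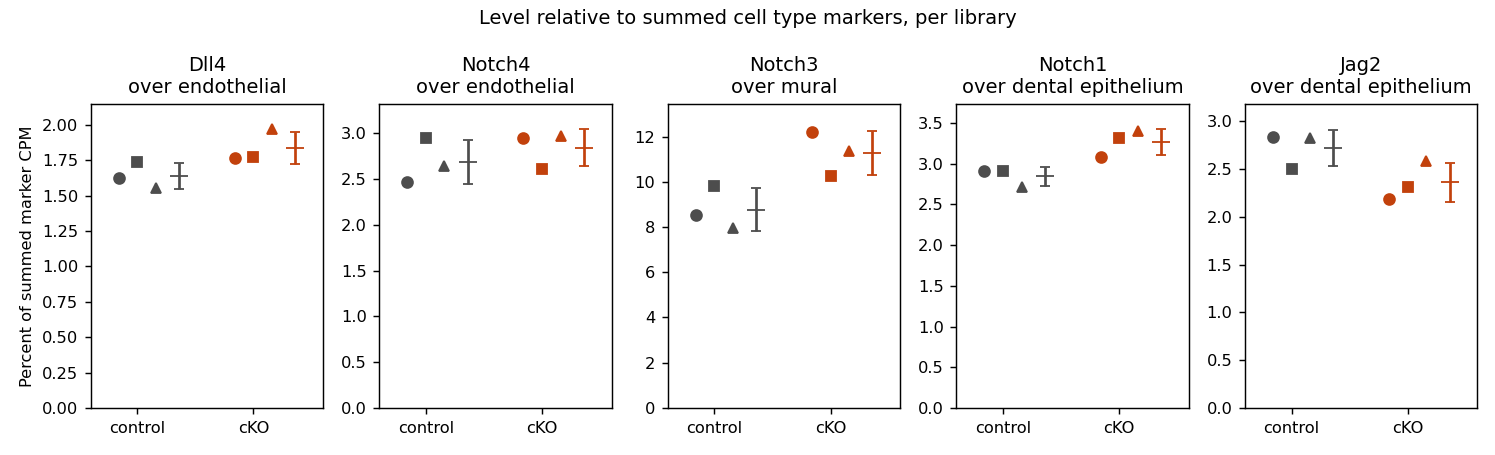
CPM of a member as a percent of the summed CPM of cell type markers in the same library (y axes from 0), with symbols for replicate 1 to 3 and mean ± SD. Dll4 over endothelial, Notch3 over all 10 mural and Notch1 over dental epithelium markers are higher in every cKO library, whereas Notch4 and Jag2 overlap between groups.

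Of the other members placed in pulp, Notch2, a widely expressed receptor (chromosome 3, 98013527 to 98150361), measured 535, 572 and 452 CPM in control mice against 528, 581 and 573 CPM in cKO mice. Control 3 was the lowest library (log2 fold change 0.11, SE 0.10, edgeR adjusted p = 0.632), and without it the difference was 0.019. Jag1, a ligand active in many mesenchymal and epithelial tissues (chromosome 2, 137081456 to 137116644), measured 130, 152 and 151 CPM in control mice against 142, 134 and 124 CPM in cKO mice. It had a log2 fold change of -0.11 (SE 0.083, edgeR adjusted p = 0.535), and control 1 stood among the cKO libraries. Dll1, a ligand of the Delta type (chromosome 17, 15367354 to 15376872), was the most variable member in controls, at 28.9, 36.2 and 20.6 CPM against 33.9, 32.0 and 36.8 CPM in cKO mice. The log2 fold change of 0.26 (SE 0.19, edgeR adjusted p = 0.526) was 0.073 without control 3 and 0.47 without control 2. Of Dll1 exonic sequence 20.6% is shared with the antisense gene A930024N18Rik, which itself stood at 1.07 ± 0.0676 CPM in controls. The strand of the libraries is not given, so reads of such pairs cannot be told apart. Notch1, Notch2, Notch3 and Dll4 share 5.02% to 7.50% with a single other gene, and Notch1 a further 2.91% with Gm13568. The gene that overlaps Notch2 lies on the same strand, so library strand would not separate that pair, and the others are antisense.

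Hes1 and Hey1 showed no difference between the groups larger than the spread among libraries. Hes1 (chromosome 16, 30064384 to 30067796) measured 45.6, 41.8 and 50.8 CPM in control mice against 48.4, 49.9 and 44.6 CPM in cKO mice. Its log2 fold change was 0.049 (SE 0.084, 95% interval -0.15 to 0.25, edgeR adjusted p = 0.812). Hey1 (chromosome 3, 8663359 to 8667256) measured 195, 171 and 126 CPM in control mice against 158, 158 and 180 CPM in cKO mice. Control 1 and control 3 were its highest and lowest libraries, and the cKO libraries lay between them (log2 fold change 0.012, SE 0.15, 95% interval -0.35 to 0.37, edgeR adjusted p = 0.978). The direction turned for Hes1 without control 2 (-0.017) and for Hey1 without control 3 (-0.15) or cKO 3 (-0.055).

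Averaged over its genes on the log2 scale, the vascular pair stood 0.41, 0.27 and 0.49 above the control mean in cKO 1 to 3, outside the control range of -0.081 to 0.084. Epithelial members averaged 0.11, -0.069 and -0.26 in cKO 1 to 3, of which only cKO 3 was outside the control range of -0.10 to 0.17. The 4 pulp and mural members averaged 0.13, 0.11 and 0.13, inside the control range of -0.15 to 0.16, and the targets 0.024, 0.043 and 0.058, inside -0.10 to 0.13. The average of 4 merges unlike genes. Of them only Notch3 was separated, at 0.20, 0.18 and 0.19 in cKO 1 to 3 against -0.053 to 0.057 in controls. Dll1 controls alone ran from -0.43 to 0.38. The widest separation lay between Dll4 and Jag2. Their log2 ratio was -2.55, -2.48 and -3.03 in controls and -2.19, -2.05 and -1.72 in cKO mice, a difference of 0.71 with no overlap. The ratio of Dll4 to another member separated the groups for 4 of 6 epithelial, pulp and mural members, namely Jag2, Notch2, Notch3 and Jag1. That share was near the background, since the ratio of Dll4 to any other tested gene did so in 63.8% of cases. For Notch4 it was 2 of 6, Jag2 and Jag1, beside 50.4% of all genes. Within the pair, the log2 ratio of Notch4 to Dll4 was 0.60 to 0.77 in controls and 0.56 to 0.74 in cKO mice.

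**Figure D4:**
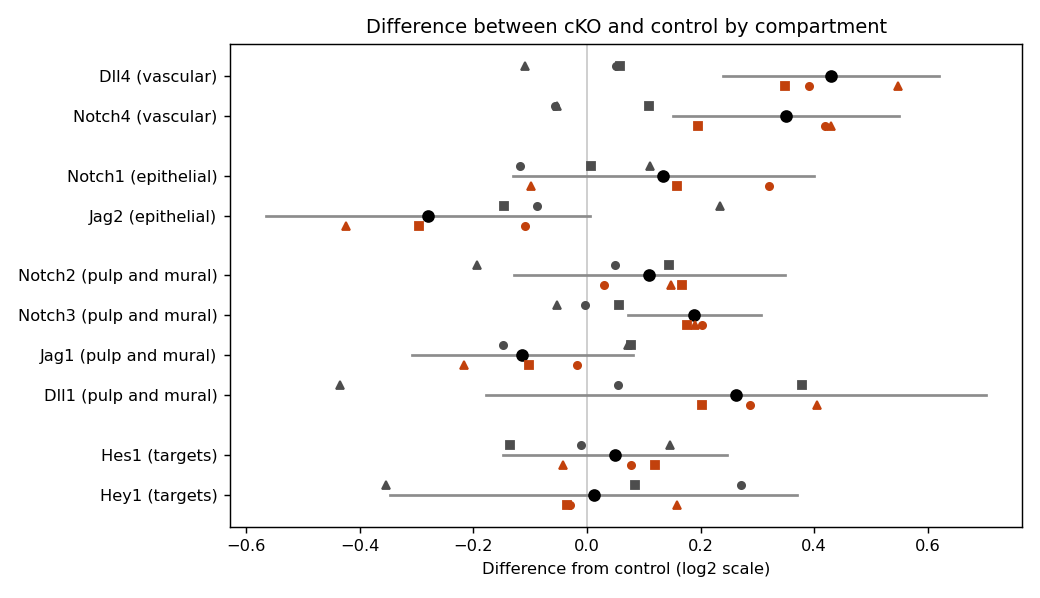
Difference from control on the log2 scale (x axis) for each member by compartment; black points with grey bars are the log2 fold change with its 95% interval, small grey and orange symbols the control and cKO libraries relative to the control mean. The intervals of Dll4, Notch4 and Notch3 lie above 0 and those of the other 7 genes include 0.

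Other genes of the pathway were read from a list of 50, of which 47 were tested. None passed the edgeR threshold, and 6 higher and 6 lower had an unadjusted p under 0.05, beside 8.71% and 8.55% of all genes. DESeq2 called 2 higher and 2 lower, where it called 4.02% and 3.66% of all genes. The groups did not overlap for 9 genes higher and 7 lower in cKO mice, beside 11.1% and 12.0% of all genes. Their median log2 fold change was -0.028, with 18 above 0 and 29 below. Dll3 and Hes2 had at most 10 counts in any library and Hes3 was not analysed here.

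The 6 pathway genes of lowest p included ligand-like proteins with log2 fold changes of opposite sign. Dlk2, a membrane protein related to the Delta ligands, measured 4.28, 2.87 and 4.09 CPM in control mice against 1.86, 1.17 and 1.09 CPM in cKO mice (a log2 fold change of -1.44, SE 0.26, edgeR adjusted p = 0.0819). Dner, a ligand-like protein best known from neurons, measured 7.26, 5.03 and 3.85 CPM in control mice against 11.7, 8.83 and 15.4 CPM in cKO mice (1.16, SE 0.28, edgeR adjusted p = 0.115). Neither gene overlapped between groups.

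Among the proteases that cut the receptor, Psen2, a catalytic subunit of gamma-secretase, measured 23.3, 25.3 and 27.1 CPM in control mice against 21.2, 17.0 and 16.1 CPM in cKO mice (-0.48, SE 0.12, edgeR adjusted p = 0.117). Furin, which cuts the receptor on its way to the surface, had a log2 fold change of 0.24 (SE 0.082, edgeR adjusted p = 0.205). The co-activator Maml3 had one of 0.29 (SE 0.073, edgeR adjusted p = 0.127) and Dtx3, of the Deltex family, one of 0.19 (SE 0.059, edgeR adjusted p = 0.174). In each of these 4 genes the groups did not overlap. The 4 genes called by DESeq2, a share near that of all genes, were Dlk2, Dner, Psen2 and Maml3.

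By list, the 10 genes of the nuclear complex had log2 fold changes from -0.059 to 0.29 and a median of -0.015. The 10 proteases ran from -0.48 to 0.24 and the 5 sugar transferases that modify the receptor from -0.11 to 0.23. The 13 genes of endocytosis and ubiquitin transfer ran from -0.46 to 0.19, with 10 below 0. Of the 6 other target genes tested, 5 were below 0 (median -0.073, range -0.84 to 0.36), the lowest being Hes5 at a mean of 0.585 CPM in control mice against 0.327 CPM in cKO mice. Heyl, a Hey family repressor, measured 62.2, 59.1 and 69.5 CPM in control mice against 57.4, 51.3 and 42.5 CPM in cKO mice. Heyl was lower in every cKO library than in any control, as were 12.0% of all genes (log2 fold change -0.34, SE 0.12, edgeR adjusted p = 0.211). Hes5 had only 18 to 48 counts per library. The groups overlapped for Hey2 (log2 fold change -0.012), Nrarp (-0.054), Hes6 (-0.092) and Hes7 (0.36).

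**Figure D5:**
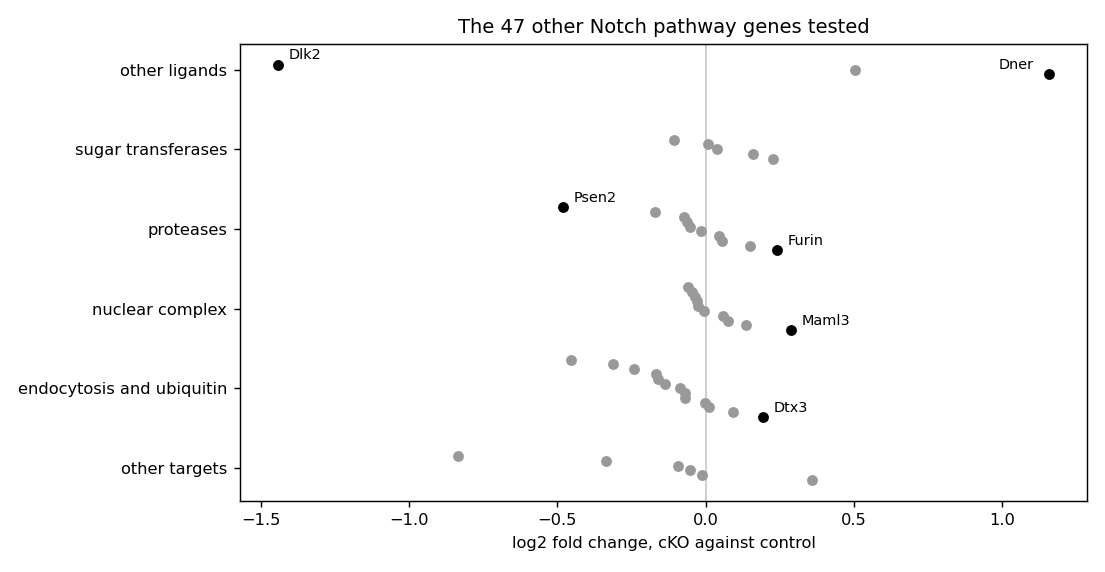
Log2 fold change (x axis, cKO against control) of the 47 other pathway genes tested, 1 point per gene, arranged by role; black points with names are the 6 genes of lowest p. Apart from Dlk2 and Dner the points lie within 1 on the log2 scale of 0.

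Likeness was measured by the Pearson correlation of log2 CPM over the 6 libraries, among 12204 genes with a mean of at least 5 CPM. The genes most like Dll4 were Gcnt2 (r = 0.999) and Syt12 (0.997), and those most like Notch4 were Pcdh12 (r = 0.988), a protocadherin of endothelial junctions, and Gpihbp1 (0.987), the lipase-binding protein of capillary endothelium. Those most like Notch3 were Aldh1l2 (0.998) and Gap43 (0.997), and those most like Jag2 were Ppfia3 and Ube2k (0.996 each). For Notch1 they were Wnk4 and Cox5a, for Notch2 Pdpr and Agtrap, for Dll1 Arsg and Mov10, and for Jag1 Emp1 and Tubg1. Hes1 was most like Spred1 and Dpy30, and Hey1 most like Ephx2 and Minos1. Such values are common with 6 libraries that share a group difference: the median of the second highest r over all these genes was 0.990. That of Notch4, 0.987, lay below this median, as did those of Notch1, Jag1, Hes1 and Hey1.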

How the data were processed

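RNA of the proximal incisor was sequenced in single-end reads of 75 cycles. Per the submitters' processing notes, STAR 2.6.1d and Partek were used with build mm10, with no parameters given. Counting settings, annotation release and library strand are not given in the sources used. The deposited table holds estimated counts for 25700 genes, of which 45.6% to 48.0% per library are whole (tolerance 1e-09). The authors' second table holds a normalized signal for 20676 genes, found to equal the estimated count plus 1 times a library factor (true of 100% of values within 0.1%), the upper quartile being 41.5 to 41.6.

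Counts were rounded, filtered with filterByExpr (minimum count 10, minimum total 15) and scaled by TMM. All 6 libraries entered a two-sided quasi-likelihood F-test (edgeR 4.0.16, R 4.3.3) that had no covariates, with a threshold of 0.05 on the Benjamini-Hochberg adjusted p. DESeq2 1.42.0 and limma 3.58.1 were alternatives. Standard errors and 95% intervals come from the F statistic; log2 CPM values per library use a prior count of 2. Libraries were numbered in accession order. The labels do not say that a library is 1 animal, and if it is not, p-values measure only the spread between samples. Replicate pairs exceeded counting noise (chi-square per degree of freedom 46.0 to 73.3), so none was counted as a repeat. Coordinates are those of the deposited table, with the end reduced by 1, and exonic lengths and shared exons were computed from GENCODE M21 (also mm10), perhaps not the annotation the authors used. Promoters are from RefSeq, GRCm38.p6, and motifs were searched as exact letters. The GC box was added after the sequences had been seen.

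The members and all lists were chosen with earlier results of these data known. The rule for named genes takes all 10 members, the 6 other pathway genes of lowest p (none passed), the most abundant markers and the 2 genes most like each member. The other markers, Hes5, Hes6, Hes7, Hey2, Heyl, Nrarp and A930024N18Rik were named after their values were seen. Scripts were tested on simulated data.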

Additional observations from a re-analysis of the deposited data

How the results depend on the processing

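Across 14 alternatives (2 other scalings, 2 other filters, DESeq2, limma-voom, limma on the authors' normalized values, 6 fits that leave out 1 library each, and edgeR with its adjusted deviance, added after the data were seen because the planned legacy deviance is the default), the count of members past the threshold was 3 with DESeq2 and 0 in the other 13. For the other pathway genes it was 4 with DESeq2 and 0 elsewhere, and for all genes 1333 with DESeq2 against 5. Leaving out 1 library gave 0 members, 0 other pathway genes and 0 to 72 of all genes (control 1, cKO 1 or cKO 2 left out: 0; control 3: 3; cKO 3: 8; control 2: 72). Of 140 log2 fold changes of single members, 134 kept direction and side of the threshold, 3 passed it (Dll4, Notch4 and Notch3 with DESeq2), and 3 turned: Hes1 without control 2 (-0.017), and Hey1 without control 3 (-0.15) or cKO 3 (-0.055). Over the fits without 1 library Hes1 ran from -0.017 to 0.12 and Hey1 from -0.15 to 0.16. The cause was not tested. Adjusted p over the alternatives ran from 0.000906 to 0.198 for Dll4, 0.0160 to 0.278 for Notch4 and 0.0322 to 0.326 for Notch3. No paired analysis was possible because the numbers were given in accession order and the protocol mentions 3 sample pairs but not their members, and the unpaired fit ignores any pairing.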
